A study of Homo sapiens with 14 samples.

Results

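LNCaP cells transfected with CTCF siRNA and collected at 144 h were compared with untransfected LNCaP cells. The comparison holds 2 arrays of each condition, 4 of the 14 arrays of the series, chosen by their labels alone. LNCaP is an established line of human prostate cancer cells that grows in response to androgen. The CTCF siRNA cells had received 20 nM of pooled small interfering RNAs (siRNAs), had been split at 72 h and had then been reverse transfected again, so that they carried CTCF siRNA for 144 h. The untransfected cells received no siRNA, and their labels give a treatment of none and no time, although 72 opens their sample codes and those of arrays collected at 72 h. The 2 arrays of control siRNA cells at 144 h, which had the same 20 nM dose, the same split and a pool of non-targeting siRNAs, are set beside the results, because those cultures went through the same transfections and were collected at the same time. All groups share the line, its standard culture conditions and the array type. CTCF depletion, transfection, splitting and time in culture cannot be told apart from the comparison with untransfected cells alone. The control siRNA arrays and the direct comparison of CTCF with control siRNA bear on this gene by gene.

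CTCF is a DNA-binding protein with a row of zinc fingers. It stops the cohesin ring as the ring extrudes a chromatin loop, so that pairs of CTCF sites anchor loops and mark the borders of chromatin domains, and CTCF also sits at many promoters. The study asked what its loss does to transcripts in prostate cancer cells, with a view to the kallikrein (KLK) genes, which encode secreted proteases such as prostate-specific antigen.

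The agent that defines the treated cells is a pool of 4 siRNAs, and their sequences are printed because every difference below was measured against cells that did not receive them. The labels give the following strands, 5′ to 3′ and without stating sense or antisense.
CTCF siRNA 1: gaugaagacugaaguaaug
CTCF siRNA 2: ggagaaagaagaagagua
CTCF siRNA 3: gaagaugccugccacuuac
CTCF siRNA 4: gaacagcccauaaacauag
CTCF siRNA 2 is listed with 18 bases and the others with 19. They hold between 36.8% and 52.6% G and C.

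Values are RMA log2 values (background-corrected, quantile-normalised and summarised per probe set), and a difference of 1 is a change by a factor of 2. Every difference is CTCF siRNA or control siRNA minus untransfected cells, or CTCF siRNA minus control siRNA where so stated. Differences are given with the standard error (SE) of a linear model in limma over all 14 arrays, with n = 2 arrays per group, and adjusted p is by Benjamini-Hochberg over the 16098 probe sets that name exactly 1 gene, with a threshold of 0.05. "Rose" and "fell" are used only for differences past it. Replicate arrays correlated at r = 0.992 to 0.994 across these probe sets, which are not independent replicates. The study calls the duplicates biological, and a p-value here reflects how far such duplicates lie apart. Over the 6 arrays the luminal prostate markers EPCAM (9.31 to 9.49), FOXA1 (8.83 to 9.12) and KRT18 (8.41 to 8.83) varied by less than 0.5, as did KRT5 of basal cells (2.13 to 2.48), DCN of fibroblasts (1.39 to 1.55) and CHGA of neuroendocrine cells (3.31 to 3.71). Other markers of these cell types varied more, among them CD24 (5.85 to 7.81) and STEAP1 (7.71 to 9.21) of luminal cells. So did KRT14 of basal cells (2.53 to 3.49), VIM of stromal cells (5.65 to 6.68) and the neuronal MAP1B (8.69 to 11.73). Levels of different probe sets are not on 1 scale and the background is unknown, so these ranges do not test the identity of the cells.

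The targeted transcript was low in both treated arrays. CTCF measured 6.84 and 6.94 in CTCF siRNA cells, 9.19 and 9.07 in control siRNA cells, and 8.85 and 8.79 in untransfected cells. The CTCF siRNA arrays lay apart from the other 4 with no overlap. CTCF fell by 1.93 ± 0.17 (SE) against untransfected cells, a loss of 73.8% of the transcript (95% interval 66.0 to 79.8%, limma adjusted p = 8.5e-05). Control siRNA cells differed from untransfected cells by 0.31 ± 0.17 in CTCF (adjusted p = 0.408). The arrays measure RNA, so the level of CTCF protein is not given by them.

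In CTCF siRNA cells 1014 probe sets rose and 771 fell against untransfected cells, together 1785 of 16098 (11.1%). Of these, 229 rose and 152 fell by at least 2-fold, and 16 rose and 16 fell by at least 4-fold. Control siRNA cells, measured against the same 2 untransfected arrays, had 329 probe sets higher and 338 lower (667, or 4.14%). The direct comparison of CTCF with control siRNA gave 386 higher and 237 lower (623, or 3.87%). A fit that leaves out 1 array of a compared group holds 1 array there, which by itself lowers precision and the number of calls. Calls lost in such fits, described below, therefore do not show that a result rested on a single array. Lost precision and dependence on 1 array cannot be told apart by them.

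**Figure D1:**
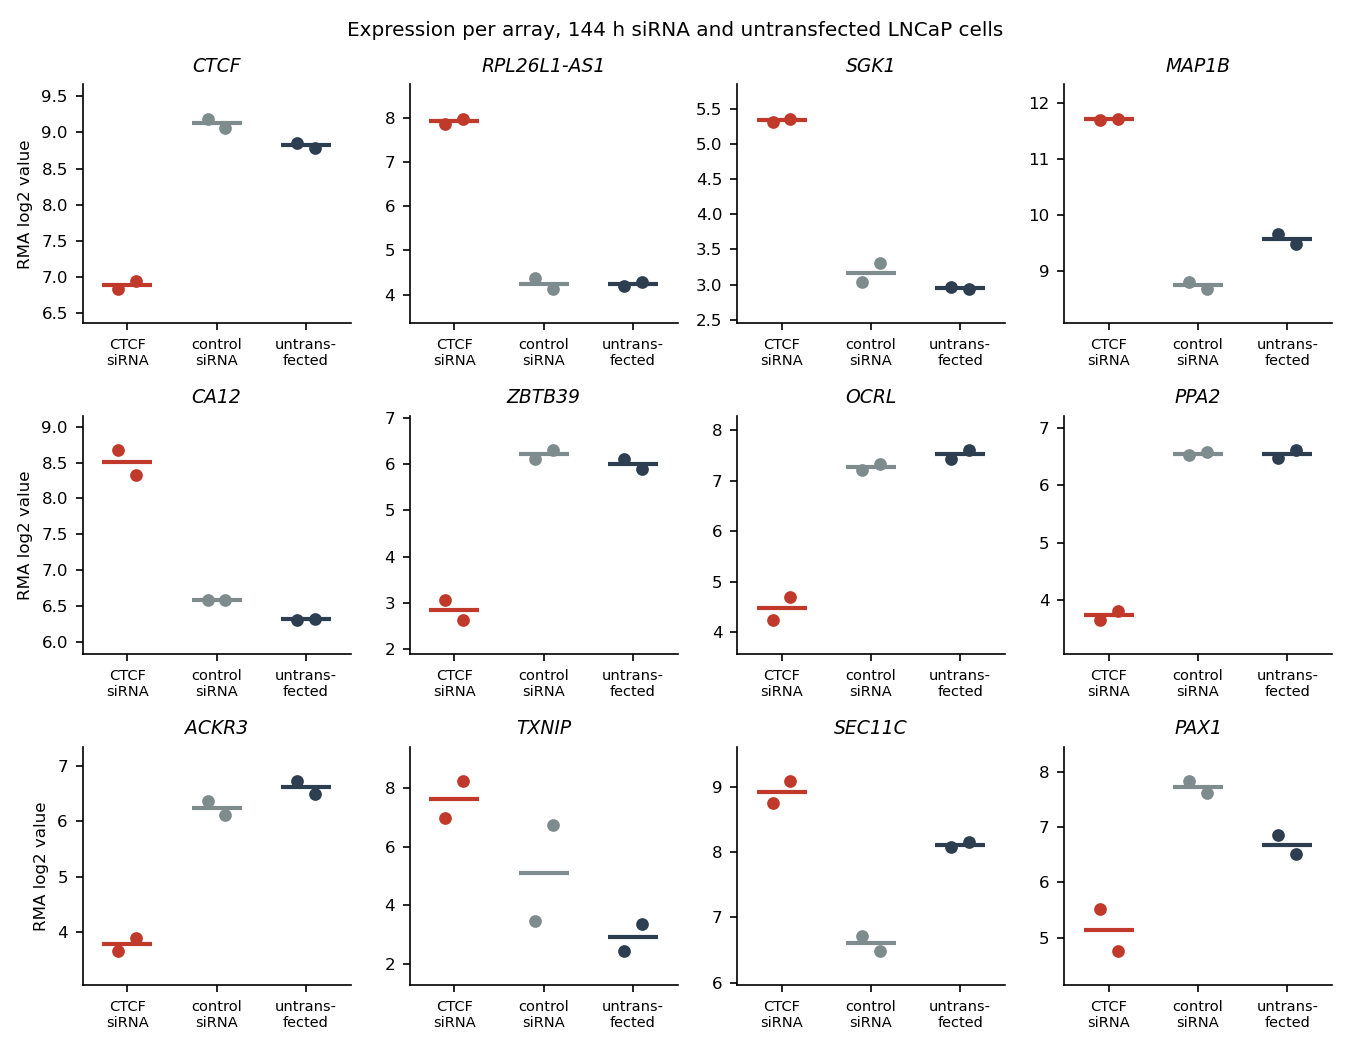
RMA log2 values of CTCF and 11 other genes in the 2 arrays each of CTCF siRNA at 144 h (left), control siRNA at 144 h (middle) and untransfected cells (right); points are arrays, bars are group means, and each panel has its own axis. CTCF lies between 6.84 and 6.94 in CTCF siRNA cells and at 8.79 or above in the other 4 arrays, while the 2 control siRNA arrays of TXNIP lie far apart at 3.47 and 6.72.

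Most genes of DNA replication rose. Cells license replication origins by loading the MCM helicase with CDC6 and CDT1, and then fire them with CDC7, CDC45 and the GINS complex, so the RNAs of this machinery mark cells that are entering or passing S phase. Of 24 measured genes of the pre-replication complex and replisome, 20 rose in CTCF siRNA cells and none fell, against 6.30% of all probe sets that rose, and the median difference was 1.26 (median of all probe sets, −0.0009). MCM10, which helps the helicase to start, measured 7.65 and 7.29 in CTCF siRNA cells, 7.31 and 7.45 in control siRNA cells, and 5.11 and 5.63 in untransfected cells. It was higher in all 4 siRNA arrays than in either untransfected array. MCM10 rose by 2.11 ± 0.26 with CTCF siRNA (adjusted p = 0.00052) and by 2.01 ± 0.26 with control siRNA (adjusted p = 0.0032), and the CTCF siRNA cells differed from the control siRNA cells by 0.10 (95% interval −0.47 to 0.66). CLSPN, the checkpoint adaptor claspin, rose by 1.86 ± 0.29, DTL, which targets the licensing factor CDT1 for destruction, by 1.77 ± 0.22 and the sliding clamp PCNA by 1.35 ± 0.16. The helicase subunits MCM3 and MCM4 rose by 1.49 ± 0.15 and 1.42 ± 0.19. A second probe set that names CLSPN differed by 0.53 (adjusted p = 0.47). The 4 genes that did not pass were TIMELESS (0.32), TIPIN (0.44), GINS3 (0.50) and CDC6 (0.85).

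Control siRNA cells moved the same way in this group. Of the 24 genes, 20 also rose with control siRNA (2.04% of all probe sets), with a median of 1.08, and none differed between CTCF and control siRNA in limma (4 at an unadjusted p under 0.05), where differences ran from −0.32 to 0.42. Summed over the 24 genes, the log2 values came to 176.1 and 169.9 in CTCF siRNA arrays, 171.0 and 171.1 in control siRNA arrays, and 143.3 and 147.9 in untransfected arrays. The siRNA arrays collected at 24 and 72 h lay between 159.6 and 178.8. Thus the 2 untransfected arrays were the lowest of all 14. The count of 20 with CTCF siRNA became 13 without CTCF siRNA replicate 1, and the 20 with control siRNA became 7 without untransfected replicate 1, 9 without control siRNA replicate 1 and 7 without control siRNA replicate 2. In RNA from a whole culture, more cells in S phase and more of these RNAs per cell cannot be told apart, and the same holds for each group below.

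Enzymes that make DNA precursors and proteins that repair broken forks followed. TYMS, which makes thymidylate, measured 7.95 and 7.76 in CTCF siRNA cells, 7.52 and 7.55 in control siRNA cells, and 6.37 and 6.03 in untransfected cells. The siRNA arrays again lay above both untransfected arrays. TYMS rose by 1.66 ± 0.19 with CTCF siRNA and RRM2, the regulatory subunit of ribonucleotide reductase, by 1.55 ± 0.18. In all, 5 of 10 measured nucleotide synthesis genes rose with CTCF siRNA (6.30% of all probe sets did) and 4 with control siRNA (2.04% did). The 5 became 3 without either CTCF siRNA array, and the 4 became 1 without untransfected replicate 1 and 2 or 0 without control siRNA replicate 1 or 2. Of 9 genes of homologous recombination and Fanconi repair, 8 rose with CTCF siRNA (median 1.06) and 6 with control siRNA (median 1.10). EXO1, a nuclease that resects DNA ends, rose by 1.74 ± 0.26 and BRIP1, a helicase partner of BRCA1, by 1.63 ± 0.24.

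BARD1, the obligate partner of BRCA1, was the exception within the repair genes. It measured 9.68 and 9.62 in CTCF siRNA cells, 8.74 and 8.90 in control siRNA cells, and 8.84 and 8.96 in untransfected cells. Only the CTCF siRNA arrays stood out. BARD1 rose by 0.74 ± 0.14 against untransfected cells (adjusted p = 0.0066, or 0.057 and 0.058 without untransfected replicate 1 and CTCF siRNA replicate 1) and was higher than in control siRNA cells by 0.83 (adjusted p = 0.0077). That difference between the siRNAs passed the threshold in no fit without control siRNA replicate 1 or either CTCF siRNA array. The count of 8 repair genes became 3 without untransfected replicate 1, and 4 or 5 without CTCF siRNA replicate 1 or 2. The 6 with control siRNA became 0, 2 and 0 without untransfected replicate 1, control siRNA replicate 1 and control siRNA replicate 2.

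Most regulators of the cell cycle rose with the replication genes. Of 26 measured cyclins, cyclin-dependent kinases, E2F factors and their partners, 20 rose and 1 fell in CTCF siRNA cells (median 0.95), whereas 16 rose and none fell in control siRNA cells (median 0.77). Among all probe sets 6.30% rose with CTCF siRNA and 2.04% with control siRNA. E2F7, a repressor of the E2F family that its own activators induce, rose by 1.60 ± 0.20, MYBL2, which drives genes of G2 and mitosis, by 1.60 ± 0.16 and the mitotic kinase CDK1 by 1.51 ± 0.27. The single gene that fell was RBL2, which encodes the retinoblastoma relative p130, found in resting cells. RBL2 measured 6.84 and 6.96 in CTCF siRNA cells, 6.97 and 7.03 in control siRNA cells, and 7.36 and 7.47 in untransfected cells. The untransfected arrays were the higher ones, by 0.51 ± 0.11 over CTCF siRNA (adjusted p = 0.0094) and by 0.42 ± 0.11 over control siRNA (adjusted p = 0.051). No member differed between the 2 siRNAs in limma (4 at an unadjusted p under 0.05). The 21 calls became 12 without CTCF siRNA replicate 1, and the 16 of control siRNA became 4, 5 and 2 without untransfected replicate 1, control siRNA replicate 1 and control siRNA replicate 2.

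Most genes of mitosis rose. These encode kinesins, spindle checkpoint kinases and kinetochore proteins, most of which peak in G2 and M phase. Of 38 measured, 31 rose in CTCF siRNA cells and none fell (median 1.03), and 34 rose in control siRNA cells (median 1.21). Among all probe sets 6.30% rose with CTCF siRNA and 2.04% with control siRNA. KIF23, a kinesin of cytokinesis, measured 8.34 and 8.0 in CTCF siRNA cells, 7.95 and 7.89 in control siRNA cells, and 6.12 and 6.92 in untransfected cells. The siRNA arrays lay above both untransfected arrays, which differed between themselves by more than the siRNA arrays did. KIF23 rose by 1.65 ± 0.24, the kinase AURKB of the chromosomal passenger complex by 1.56 ± 0.20, the kinetochore subunit NDC80 by 1.36 ± 0.27 and the separase gene ESPL1 by 1.29 ± 0.17. No member differed between CTCF and control siRNA in limma (1 at an unadjusted p under 0.05), with differences from −0.50 to 0.46. The 31 calls became 13 without CTCF siRNA replicate 1 and 15 without untransfected replicate 1, and NDC80 lost its call in both of these fits (adjusted p = 0.061 and 0.086). The 34 of control siRNA became 4, 5 and 4 without untransfected replicate 1, control siRNA replicate 1 and control siRNA replicate 2.

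The promoters of these groups are known for 2 short elements: the E2F motif (TTTNGCGC) of S-phase genes, and the CHR element (TTTGAA) through which the DREAM and MuvB complexes act on mitotic genes. Both were searched on either strand in RefSeq promoter windows of 300 bases (GRCh38.p14, 250 before to 50 after the first listed start). Counted were the measured members that have a window, called or not. These were 20 of 24 replisome, 20 of 26 cell cycle regulator and 35 of 38 mitosis genes. The E2F motif was in 8 of 20 replisome promoters (40.0%), 6 of 20 cell cycle regulator promoters (30.0%) and 2 of 35 mitosis promoters (5.71%). It was in 1.83% of all 27305 windows and in 2.47% of those of the 10749 tested genes. The CHR element was in 26 of 35 mitosis promoters (74.3%) and 4 of 20 cell cycle regulator promoters (20.0%), against 15.4% and 11.8%. Such matches describe the letters and not binding. Stretches of 80 bases are printed for a pair of genes of each kind, with a match of the motif, on either strand, in capitals. Not every match is marked. The MCM6 stretch holds a further E2F match that overlaps the marked bases, and the KIF15 stretch also holds an E2F match. MCM6 was taken for its motif outside the rule for named genes.
DTL, chr1:212035668-212035747, plus strand: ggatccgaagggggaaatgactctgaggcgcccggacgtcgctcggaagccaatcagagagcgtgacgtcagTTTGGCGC
MCM6, chr2:135876552-135876631, minus strand: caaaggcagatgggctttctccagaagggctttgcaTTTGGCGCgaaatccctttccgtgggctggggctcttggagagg
KIF23, chr15:69414258-69414337, plus strand: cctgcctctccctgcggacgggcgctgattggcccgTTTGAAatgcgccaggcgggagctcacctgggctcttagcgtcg
KIF15, chr3:44761714-44761793, plus strand: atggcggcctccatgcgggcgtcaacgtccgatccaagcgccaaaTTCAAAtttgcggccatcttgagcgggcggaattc
DTL and MCM6 rose by 1.77 ± 0.22 and 1.30 ± 0.15 with CTCF siRNA, and by 1.65 and 1.02 with control siRNA. KIF23 and KIF15 rose by 1.65 and 1.34 with CTCF siRNA, and by 1.40 and 1.42 with control siRNA. The rise of KIF15 with CTCF siRNA lost its call without untransfected replicate 1 (adjusted p = 0.089) or CTCF siRNA replicate 1 (0.088).

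**Figure D2:**
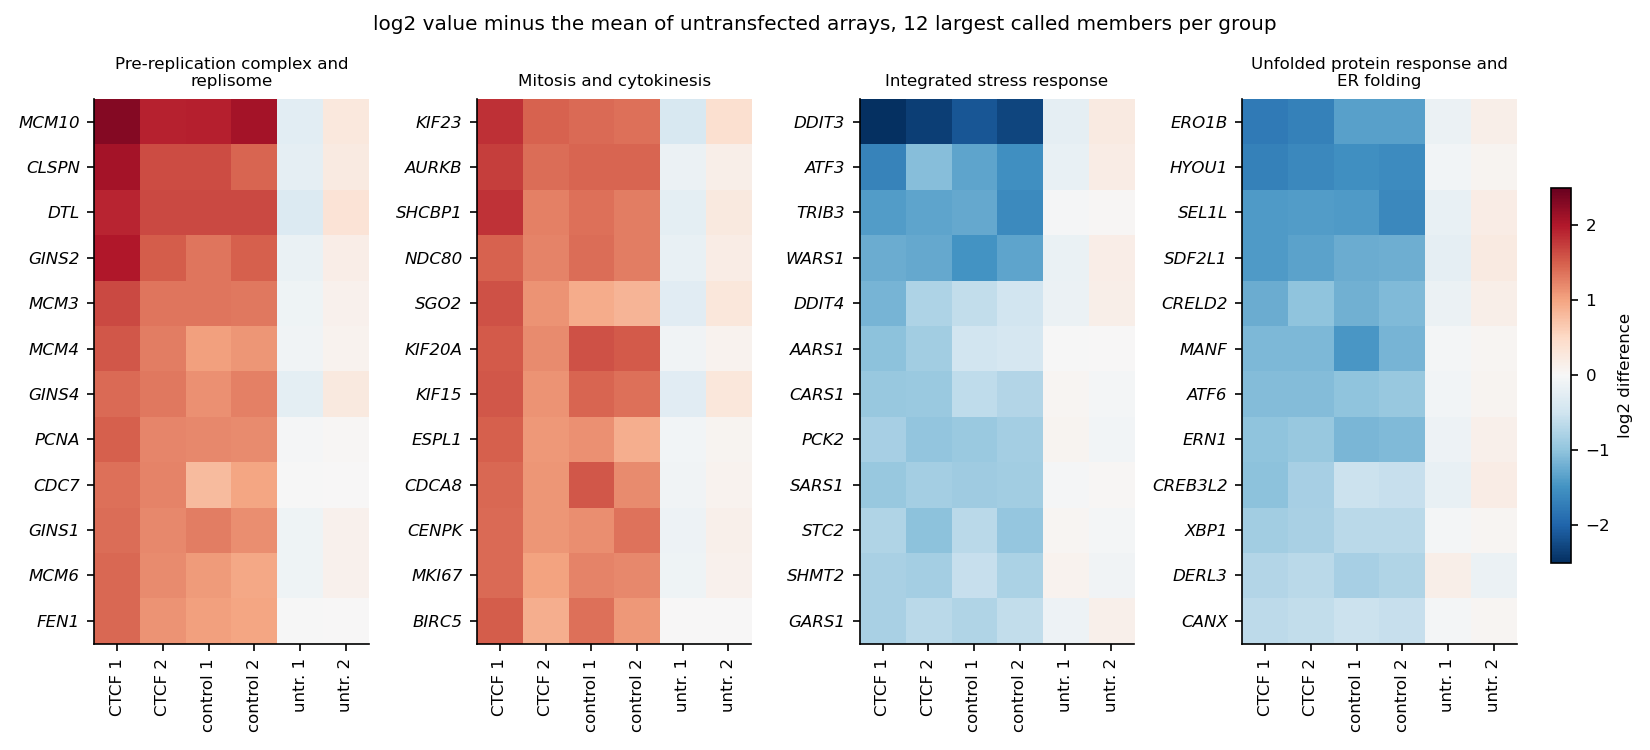
Log2 value minus the mean of the untransfected arrays (colour, from −2.5 in blue to 2.5 in red) in the 2 CTCF siRNA, 2 control siRNA and 2 untransfected arrays (columns, left to right), for the 12 called genes with the largest differences in each of 4 gene groups (rows). In replication and mitosis genes all 4 siRNA columns are red, and in stress response genes all 4 are blue.

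Genes of a stress programme fell in part. The integrated stress response is the programme by which phosphorylation of a translation initiation factor raises the transcription factor ATF4, which induces amino acid synthesis enzymes, aminoacyl-tRNA synthetases and the factor DDIT3 (CHOP). Of 27 measured genes, 16 fell in CTCF siRNA cells and none rose (4.79% of all probe sets fell), with a median of −0.68. DDIT3 measured 4.38 and 4.60 in CTCF siRNA cells, 4.82 and 4.67 in control siRNA cells, and 6.73 and 7.19 in untransfected cells. Its untransfected arrays lay more than 1.9 above every siRNA array of 144 h. DDIT3 fell by 2.47 ± 0.38 (5.53-fold, adjusted p = 0.0020), ATF3, another stress factor, by 1.37 ± 0.20, the pseudokinase TRIB3 by 1.36 ± 0.30 and the tryptophanyl-tRNA synthetase WARS1 by 1.26 ± 0.17. A second probe set of WARS1 differed by −0.46 (adjusted p = 0.14). ATF4 itself, named after its values were seen, fell by 0.68 ± 0.13. TRIB3 lost the call without any 1 of the 4 arrays compared (adjusted p = 0.071 to 0.085).

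With control siRNA 11 of the 27 fell and none rose (2.10% of all probe sets fell), with a median of −0.55. The only member that differed between the siRNAs was AARS1, the alanyl-tRNA synthetase. It measured 9.02 and 9.17 in CTCF siRNA cells, 9.56 and 9.62 in control siRNA cells, and 10.03 and 10.04 in untransfected cells. The 3 groups formed separate steps, and AARS1 was lower with CTCF than with control siRNA by 0.49 (adjusted p = 0.048), a call lost when any 1 of 12 of the 14 arrays was left out, all but those of control siRNA at 72 h. Over the 27 genes the summed log2 values were 204.4 and 207.1 in CTCF siRNA arrays, 206.7 and 206.7 in control siRNA arrays, and 224.9 and 226.2 in untransfected arrays. Among the siRNA arrays of the other times, control siRNA replicate 2 of 72 h stood at 222.4, close to the untransfected arrays, and the others at 207.8 to 212. The 16 calls became 10, 10 and 9 without untransfected replicate 1, CTCF siRNA replicate 1 and CTCF siRNA replicate 2. The 11 of control siRNA became 3, 6, 4 and 1 without untransfected replicate 1 or 2, or control siRNA replicate 1 or 2.

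Most chaperones and folding enzymes of the endoplasmic reticulum (ER) fell with them. Unfolded protein in the ER lumen activates the sensors ERN1 (IRE1), ATF6 and PERK, which raise chaperones, disulfide oxidases and components that remove misfolded protein. Of 17 measured genes, 15 fell in CTCF siRNA cells and none rose (median −0.92), and 13 fell in control siRNA cells (median −0.79). Among all probe sets 4.79% fell with CTCF siRNA and 2.10% with control siRNA. HYOU1, an ER chaperone, measured 8.21 and 8.29 in CTCF siRNA cells, 8.36 and 8.31 in control siRNA cells, and 9.82 and 9.96 in untransfected cells. All 4 siRNA arrays of 144 h lay close together and far below untransfected cells. HYOU1 fell by 1.64 ± 0.26, the disulfide oxidase ERO1B by 1.73 ± 0.20, SEL1L of the ER degradation machinery by 1.41 ± 0.32 and the sensors ATF6 and ERN1 by 1.08 ± 0.13 and 0.99 ± 0.18. SEL1L lost its call without any 1 of the 4 arrays compared (adjusted p = 0.063 to 0.11). A second probe set of HYOU1 fell by 0.89. The 2 genes that did not pass were DERL1 (−0.37) and CREB3L4 (−0.15). No member differed between CTCF and control siRNA in limma (1 at an unadjusted p under 0.05), with differences from −0.38 to 0.19. Over the 17 genes the summed log2 values were 133.8 and 136.4 in untransfected arrays. Control siRNA replicate 2 of 72 h stood close to them at 131.8, and the other siRNA arrays of the series at 119.2 to 124.8. The 15 calls became 9, 8 and 8 without untransfected replicate 2, CTCF siRNA replicate 1 and CTCF siRNA replicate 2. The 13 of control siRNA became 2, 5, 3 and 1 without untransfected replicate 1 or 2, or control siRNA replicate 1 or 2.

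The elements known for these programmes were searched in the same windows, again of all measured members that have a window, called or not. These were 24 of 27 integrated stress response and 15 of 17 unfolded protein response genes. The CARE element read by ATF4 with a C/EBP partner (TGATGNAA) was in 8 of 24 integrated stress response promoters (33.3%), against 3.67% of all windows and 2.24% of those of tested genes. The ER stress response element ERSE (CCAAT, 9 bases of any kind, CCACG) was in 5 of 15 unfolded protein response promoters (33.3%), against 22 of all 27305 windows (0.0806%). A pair of genes is printed for each, with ASNS, the asparagine synthetase, and XBP1, the factor that ERN1 activates by splicing its mRNA, taken for their motifs outside the rule for named genes.
ATF3, chr1:212565180-212565259, plus strand: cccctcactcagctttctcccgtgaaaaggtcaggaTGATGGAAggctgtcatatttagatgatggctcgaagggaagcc
ASNS, chr7:97872433-97872512, minus strand: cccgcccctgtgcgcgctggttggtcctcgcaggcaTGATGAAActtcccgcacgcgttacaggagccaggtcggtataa
ERO1B, chr1:236282129-236282208, minus strand: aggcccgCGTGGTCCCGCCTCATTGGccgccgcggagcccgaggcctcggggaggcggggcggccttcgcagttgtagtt
XBP1, chr22:28800578-28800657, minus strand: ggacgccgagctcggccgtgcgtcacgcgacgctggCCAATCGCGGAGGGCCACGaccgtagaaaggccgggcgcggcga
With CTCF siRNA, ATF3 fell by 1.37 ± 0.20, ASNS by 0.71 ± 0.13, ERO1B by 1.73 ± 0.20 and XBP1 by 0.84 ± 0.16. With control siRNA the falls of these genes were 1.43, 0.81, 1.36 and 0.68 in the same order.

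**Figure D3:**
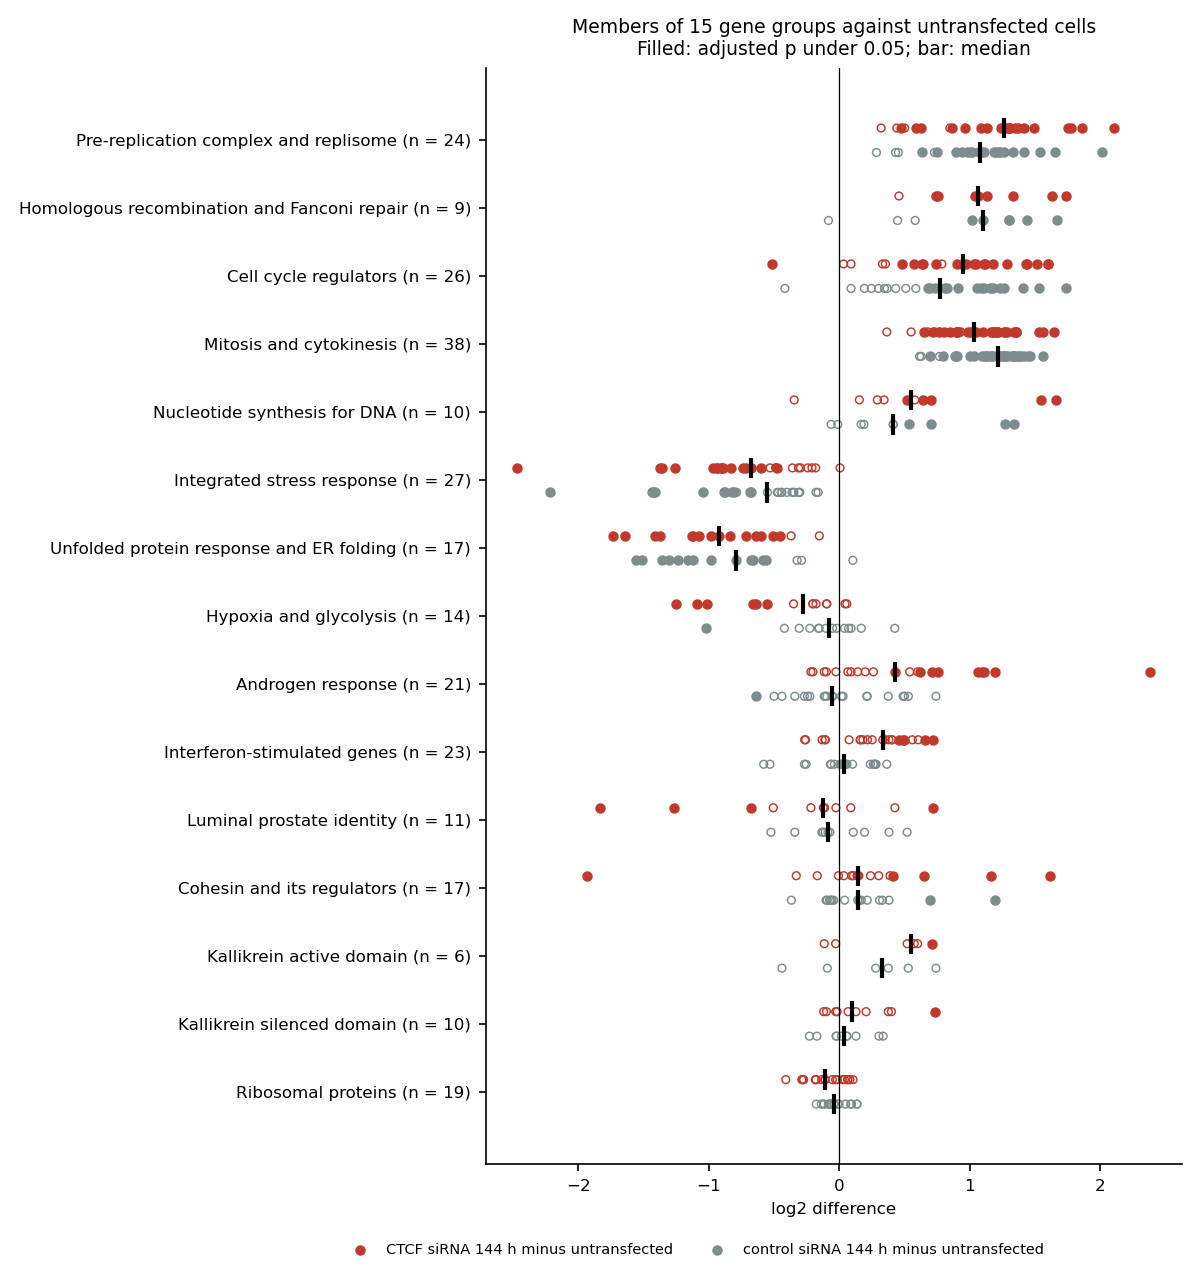
Log2 difference from untransfected cells (horizontal axis) of every measured member of 15 gene groups, with CTCF siRNA at 144 h in red above control siRNA at 144 h in grey; filled points passed an adjusted p of 0.05 and black bars are medians. In both rows the replication, repair, cell cycle and mitosis groups lie to the right, and the integrated stress and unfolded protein response groups to the left. The androgen response group has 9 filled red points to the right and no filled grey point there, with 1 filled grey point to the left.

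Other genes near the top of the ranking behaved like these groups. LAMP3, a lysosomal membrane protein that ER stress induces, measured 3.43 and 3.76 in CTCF siRNA cells, 3.32 and 3.38 in control siRNA cells, and 5.85 and 6.19 in untransfected cells. It fell by 2.43 ± 0.28 with CTCF siRNA and by 2.67 ± 0.28 with control siRNA. CFAP107, a protein of ciliary microtubules, fell by 2.49 ± 0.37 and 2.57 ± 0.37. These genes were low in all 4 siRNA arrays, and the differences between the siRNAs were 0.25 (95% interval −0.36 to 0.85) for LAMP3 and 0.07 (−0.75 to 0.89) for CFAP107. A further set fell with both siRNAs, but by more with CTCF siRNA. POPDC1, a cAMP-binding membrane protein, fell by 2.55 ± 0.15 with CTCF siRNA and by 1.65 ± 0.15 with control siRNA, and the difference of −0.90 passed the threshold (adjusted p = 0.0054). SVIL, the actin-binding protein supervillin, fell by 2.10 ± 0.12 with CTCF siRNA and by 0.91 ± 0.12 with control siRNA, with a difference of −1.19 (adjusted p = 0.00024). CRISP3, a secreted cysteine-rich protein, rose by 2.21 ± 0.25 with CTCF siRNA and by 1.02 ± 0.25 with control siRNA, with a difference of 1.19 (adjusted p = 0.021).

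TXNIP had the largest estimate of all and the widest error. It encodes an arrestin-like protein that binds thioredoxin and limits glucose uptake. It measured 6.97 and 8.24 in CTCF siRNA cells, 3.47 and 6.72 in control siRNA cells, and 2.45 and 3.38 in untransfected cells. The control siRNA arrays differed from each other by over 3 and the lower one was next to the untransfected arrays, although CTCF siRNA did not overlap with either group. TXNIP rose by 4.69 ± 0.91 with CTCF siRNA (adjusted p = 0.0068, or 0.062 and 0.066 without untransfected replicate 1 and CTCF siRNA replicate 2). The difference between the siRNAs was 2.51 (95% interval 0.52 to 4.50, adjusted p = 0.18). A second probe set of TXNIP differed by 1.38 with CTCF siRNA (adjusted p = 0.055). In the siRNA arrays of 24 and 72 h TXNIP ran from 3.46 to 7.24. Of 11 measured genes of its family and of glucose response, ARRDC4 also rose (1.18 ± 0.30, adjusted p = 0.026, or 0.11 to 0.23 without either untransfected array or CTCF siRNA replicate 2), and ARRDC3 is described with the genes that opposed each other.

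Most of the largest differences, in contrast, were seen with CTCF siRNA and not with control siRNA. Of the 15 genes with the largest rises, RPL26L1-AS1 led this set, a long non-coding RNA annotated antisense to a ribosomal protein gene. It measured 7.87 and 7.98 in CTCF siRNA cells, 4.37 and 4.13 in control siRNA cells, and 4.19 and 4.29 in untransfected cells. The control siRNA and untransfected arrays overlapped, and both CTCF siRNA arrays lay more than 3 above them. It rose by 3.68 ± 0.19 (12.8-fold, adjusted p = 6.1e-06), and by the same 3.68 over control siRNA cells. A second probe set of the same RNA rose by 0.90. In the CTCF siRNA arrays of earlier times it stood at 5.08 and 5.10 (24 h) and at 6.39 and 6.94 (72 h). The sense gene RPL26L1, looked up for this comparison, differed from untransfected cells by −0.29 ± 0.11 (adjusted p = 0.13).

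Kinases, receptors and enzymes followed. SGK1, a kinase induced by steroid hormones and serum, measured 5.32 and 5.36 in CTCF siRNA cells, 3.04 and 3.30 in control siRNA cells, and 2.97 and 2.94 in untransfected cells. It rose by 2.38 ± 0.15 and was higher than with control siRNA by 2.17 (adjusted p = 2.3e-05). Only the CTCF siRNA arrays of 144 h were that high, since the other siRNA arrays of the series ran from 3.04 to 3.78. Between CTCF siRNA at 144 h and at 72 h, 136 probe sets of the series differed (0.845%), SGK1 among them with 1.62 ± 0.15 (adjusted p = 0.00185). CA12, a carbonic anhydrase of the cell surface, measured 8.68 and 8.32 in CTCF siRNA cells, 6.58 and 6.58 in control siRNA cells, and 6.30 and 6.32 in untransfected cells. CA12 rose by 2.19 ± 0.17. CALCRL, the receptor for adrenomedullin and calcitonin gene-related peptide, rose by 2.33 ± 0.32, and CLU, the secreted chaperone clusterin, by 2.05 ± 0.15. The clusterin relative CLUL1 rose by 2.23 ± 0.21, TMTC2, which mannosylates cadherins in the ER, by 2.08 ± 0.17 and SYCE3 of the meiotic synaptonemal complex by 2.03 ± 0.19. PXN-AS1, annotated antisense to paxillin, rose by 2.00 ± 0.16, while PXN, looked up likewise, differed by −0.22 ± 0.12 (adjusted p = 0.28). Each of these genes was also higher in CTCF siRNA than in control siRNA cells, by 1.69 to 2.48, whereas none differed between control siRNA and untransfected cells.

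MAP1B moved in opposite directions with the 2 siRNAs. It encodes a microtubule-binding protein best known from growing axons. It measured 11.71 and 11.73 in CTCF siRNA cells, 8.81 and 8.69 in control siRNA cells, and 9.67 and 9.49 in untransfected cells. The 3 groups were apart, with untransfected cells in the middle. MAP1B rose by 2.14 ± 0.14 with CTCF siRNA (adjusted p = 1.7e-05) and fell by 0.83 ± 0.14 with control siRNA (adjusted p = 0.011). The fall lost its call without untransfected replicate 1 or either control siRNA array. MAP1B was the only one of 13 measured neuroendocrine and neuronal markers to rise with CTCF siRNA, and none fell, although the count became 2 without untransfected replicate 1. CHGA, CHGB, SYP and INSM1 differed from untransfected cells by −0.06, 0.18, −0.01 and −0.06.

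Among the decreases seen with CTCF siRNA alone, ZBTB39, a zinc-finger gene of the BTB family, was the largest. It measured 3.07 and 2.63 in CTCF siRNA cells, 6.12 and 6.31 in control siRNA cells, and 6.11 and 5.90 in untransfected cells. The control siRNA arrays were at or above the untransfected ones. ZBTB39 fell by 3.16 ± 0.20 (8.91-fold, adjusted p = 1.2e-05), more than CTCF itself. OCRL, the inositol polyphosphate phosphatase mutated in Lowe syndrome, measured 4.25 and 4.71 in CTCF siRNA cells, 7.21 and 7.34 in control siRNA cells, and 7.43 and 7.62 in untransfected cells. OCRL fell by 3.05 ± 0.21. ACKR3, a scavenging receptor for chemokines, measured 3.66 and 3.90 in CTCF siRNA cells, 6.37 and 6.10 in control siRNA cells, and 6.73 and 6.49 in untransfected cells, and fell by 2.83 ± 0.22. In each of these genes the CTCF siRNA arrays of 144 h lay more than 2 below the control siRNA arrays of 144 h and the untransfected arrays. At 72 h of CTCF siRNA the differences from untransfected cells were smaller, −1.94 (ZBTB39), −1.56 (OCRL) and −1.32 (ACKR3).

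Mitochondrial enzymes were among them. PPA2, the mitochondrial pyrophosphatase, measured 3.65 and 3.81 in CTCF siRNA cells, 6.53 and 6.58 in control siRNA cells, and 6.48 and 6.63 in untransfected cells, a fall of 2.83 ± 0.16 (7.09-fold). BOLA3, which helps to place iron-sulfur clusters, fell by 2.07 ± 0.21. HSD17B14, which oxidises hydroxysteroids, fell by 2.57 ± 0.27, the RNA-binding protein RBM45 by 2.22 ± 0.14 and CDKN2AIPNL by 2.40 ± 0.23. GTF2IRD2, a relative of the transcription factor TFII-I, fell by 2.20 ± 0.12, and since the genome holds near-identical copies of it, its probes may read more than 1 of them. All of these were lower than with control siRNA by 1.86 to 2.83. Of the 30 largest differences in both directions, 26 stayed called in all alternatives run. TXNIP did not, and SGK1, CFAP47 and CFAP107 had no row in the fit restricted to brighter probe sets and stayed called in the others.

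**Figure D4:**
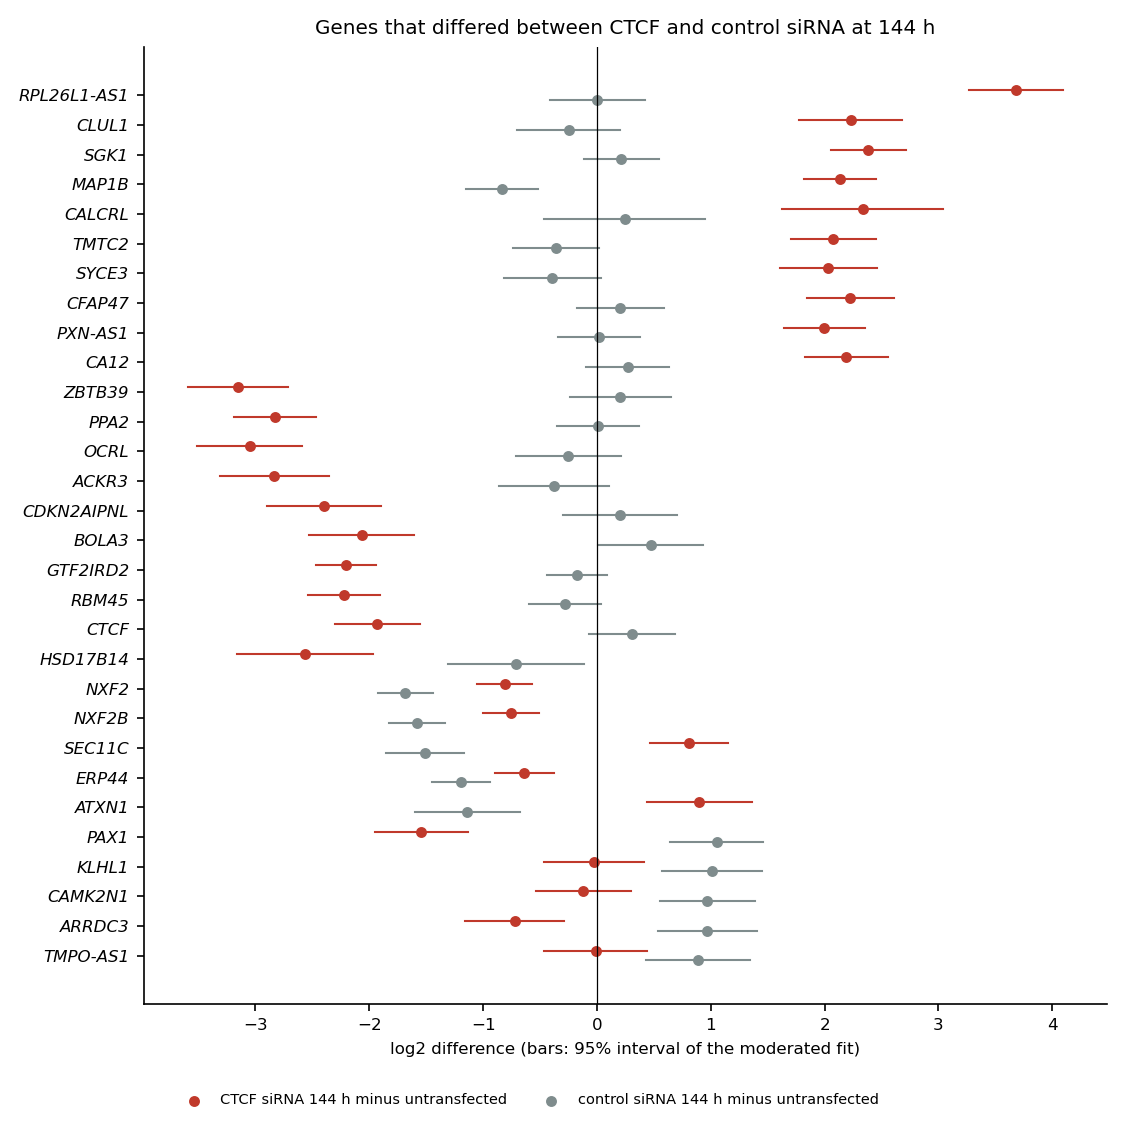
Log2 difference from untransfected cells (horizontal axis, bars are 95% intervals) for CTCF siRNA at 144 h (red, upper) and control siRNA at 144 h (grey, lower) in CTCF, 19 other genes called against both untransfected and control siRNA cells, and 10 genes called with control siRNA whose difference between the siRNAs ran the other way. RPL26L1-AS1 lies at 3.68 with CTCF siRNA and at 0.00 with control siRNA, whereas SEC11C and ATXN1 lie to the right in red and to the left in grey.

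A further set was picked because control siRNA moved the gene and the difference between the siRNAs ran the other way, both past the threshold. These 2 comparisons share the control siRNA arrays with opposite sign, so the opposition is partly built in by the choice. With CTCF siRNA some of the genes moved the other way, some differed little from untransfected cells and some moved the same way by less. PAX1, a transcription factor of the embryonic skeleton, measured 5.52 and 4.76 in CTCF siRNA cells, 7.84 and 7.63 in control siRNA cells, and 6.85 and 6.51 in untransfected cells. It fell by 1.54 ± 0.19 with CTCF siRNA and rose by 1.05 ± 0.19 with control siRNA. SEC11C, a subunit of signal peptidase in the ER, measured 8.75 and 9.09 in CTCF siRNA cells, 6.71 and 6.49 in control siRNA cells, and 8.07 and 8.15 in untransfected cells. It rose by 0.81 ± 0.16 with CTCF siRNA and fell by 1.51 ± 0.16 with control siRNA. In PAX1 and SEC11C untransfected cells thus stood between the 2 siRNAs. The call of SEC11C against untransfected cells was lost without untransfected replicate 2 (adjusted p = 0.055) or CTCF siRNA replicate 2 (0.070).

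ARRDC3 and ATXN1 showed the same opposition with smaller margins. ARRDC3, an arrestin-like relative of TXNIP, fell by 0.72 ± 0.20 with CTCF siRNA and rose by 0.97 ± 0.20 with control siRNA, and its fall lost the call without any 1 of the 6 arrays (adjusted p = 0.052 to 0.27). ATXN1, a transcriptional corepressor, rose by 0.90 ± 0.21 and fell by 1.14 ± 0.21, and its rise lost the call without untransfected replicate 1 (0.15) or CTCF siRNA replicate 1 (0.19). KLHL1, CAMK2N1 and TMPO-AS1 rose with control siRNA by 0.89 to 1.01 and differed from untransfected cells by −0.03, −0.12 and −0.01 with CTCF siRNA. ERP44, a thiol chaperone of the early secretory pathway, fell by 0.64 ± 0.12 with CTCF siRNA and by 1.19 ± 0.12 with control siRNA. The near-identical copies NXF2 and NXF2B, whose probe sets cannot be separated with certainty, fell by 0.81 and 0.75 with CTCF siRNA and by 1.68 and 1.58 with control siRNA.

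Some androgen-responsive genes rose with CTCF siRNA. In prostate cells androgen switches on secretory and metabolic genes. Of 21 measured genes, 9 rose and none fell in CTCF siRNA cells (median 0.43, with 6.30% of all probe sets higher), no gene rose and 1 fell in control siRNA cells (median −0.05), and 7 were higher with CTCF than with control siRNA (2.40% of all probe sets were). FKBP5, a co-chaperone of steroid receptors, measured 5.83 and 6.06 in CTCF siRNA cells, 5.24 and 5.42 in control siRNA cells, and 4.82 and 4.86 in untransfected cells. It rose by 1.11 ± 0.13 (adjusted p = 0.00037), differed by 0.49 ± 0.13 with control siRNA (adjusted p = 0.054), and was higher than with control siRNA by 0.62 (adjusted p = 0.019). ZBTB16, a zinc-finger factor, measured 6.37 and 6.68 in CTCF siRNA cells, 5.19 and 5.51 in control siRNA cells, and 5.49 and 5.17 in untransfected cells. It rose by 1.20 ± 0.17, and its control siRNA and untransfected arrays overlapped.

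The rest of this group was mixed. SGK1, described above, is a member, and EAF2, an elongation factor partner, rose by 1.06 ± 0.22 and the factor MAF by 0.76 ± 0.18. EAF2 lost its call without untransfected replicate 1 or either CTCF siRNA array (adjusted p = 0.054 to 0.098), and MAF without untransfected replicate 2 or either CTCF siRNA array (0.082 to 0.15). KLK3, which encodes prostate-specific antigen, measured 8.05 and 8.58 in CTCF siRNA cells, 8.32 and 8.59 in control siRNA cells, and 7.86 and 7.57 in untransfected cells. It differed from untransfected cells by 0.60 ± 0.19 (adjusted p = 0.063) with CTCF siRNA and by 0.74 ± 0.19 (adjusted p = 0.050) with control siRNA. Summed over the 21 genes the log2 values were 143.4 and 148.1 in CTCF siRNA arrays, 133.6 and 136.8 in control siRNA arrays, and 135.6 and 134.7 in untransfected arrays. The 1 gene that fell with control siRNA, HERC3 (−0.64), lost its call without either untransfected array or any control siRNA array of 24 or 144 h. The 9 calls became 4 without CTCF siRNA replicate 2, and the 7 against control siRNA became 4 without CTCF siRNA replicate 2 or either control siRNA array.

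The kallikrein locus holds a domain that is active and a neighbouring domain that is silent in these cancer cells. Of the 6 genes of the active domain 1 rose with CTCF siRNA, and of the 10 of the silenced domain 1 rose, against 6.30% of all probe sets. None passed with control siRNA in limma (3 of the active and 2 of the silenced domain at an unadjusted p under 0.05). KLK2 measured 8.85 and 9.28 in CTCF siRNA cells, 8.74 and 9.03 in control siRNA cells, and 8.44 and 8.26 in untransfected cells. It rose by 0.71 ± 0.17 (adjusted p = 0.019, or 0.16 and 0.17 without untransfected replicate 2 and CTCF siRNA replicate 2), with 0.53 ± 0.17 in control siRNA cells (adjusted p = 0.12). KLK14 of the silenced domain measured 4.50 and 4.42 in CTCF siRNA cells, 4.28 and 3.78 in control siRNA cells, and 3.77 and 3.68 in untransfected cells. KLK14 rose by 0.73 ± 0.13 (adjusted p = 0.0050), and its difference from control siRNA was 0.43 (95% interval 0.13 to 0.72, adjusted p = 0.12). The other active genes KLK1, KLK15, KLKP1 and KLK4 differed by 0.57, 0.52, −0.03 and −0.11, and the other silenced genes by −0.12 (KLK12) to 0.40 (KLK13). No kallikrein gene differed between CTCF and control siRNA in limma (1 of each domain at an unadjusted p under 0.05). The single call of the active domain became 0 without untransfected replicate 2 or CTCF siRNA replicate 2, and 2 without CTCF siRNA replicate 1, either control siRNA array of 72 or 144 h, or either CTCF siRNA array of 72 h.

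Surface and secretory markers of luminal prostate cells changed unevenly. Of 11 measured, 3 fell and 1 rose with CTCF siRNA, and none passed with control siRNA in limma (4 at an unadjusted p under 0.05). Among all probe sets 4.79% fell and 6.30% rose with CTCF siRNA. CD24, a glycoprotein of the epithelial surface, measured 5.85 and 5.90 in CTCF siRNA cells, 7.68 and 7.48 in control siRNA cells, and 7.60 and 7.81 in untransfected cells. It fell by 1.83 ± 0.17 (adjusted p = 0.00010) and was lower than with control siRNA by 1.71. STEAP1, a metalloreductase of prostate epithelium, fell by 1.27 ± 0.20, and FOLH1, the prostate-specific membrane antigen, by 0.68 ± 0.11. GRHL2, a factor that maintains epithelium, rose by 0.72 ± 0.11. The lineage factors FOXA1 and HOXB13 differed by 0.09 and −0.12, so the list did not move one way (median −0.12). The 3 differences between the siRNAs (CD24, FOLH1 and GRHL2) became 1 without any 1 of their 4 arrays.

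Markers of other cell types gave few calls. None of 4 basal epithelial markers passed with either siRNA in limma, with 1 at an unadjusted p under 0.05 for CTCF siRNA and 0 for control siRNA, and the count for CTCF siRNA was 1 without either CTCF siRNA array of 72 h. Of 5 fibroblast and stromal markers VIM fell, by 0.78 ± 0.12 with CTCF siRNA and by 0.58 ± 0.12 with control siRNA, while 2 other probe sets that name it differed by −0.48 and −0.02 with CTCF siRNA (adjusted p = 0.082 and 0.96). The control siRNA call was lost without any 1 of its 4 arrays. DCN and LUM lay between 1.39 and 2.04 in all 6 arrays. Of 5 immune markers CD68, a lysosomal glycoprotein rich in macrophages but present in other cells, measured 6.74 and 6.62 in CTCF siRNA cells, 5.44 and 5.59 in control siRNA cells, and 5.29 and 5.23 in untransfected cells. CD68 rose by 1.42 ± 0.13 with CTCF siRNA and differed by 0.26 with control siRNA, while CD14, CSF1R, LYZ and NKG7 differed by −0.11, −0.18, 0.21 and −0.01.

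Genes of the hypoxia response fell in part. Low oxygen stabilises HIF, which raises VEGFA, glycolytic enzymes and the mitophagy receptors BNIP3 and BNIP3L. Of 14 measured, 6 fell in CTCF siRNA cells (4.79% of all probe sets did) and 1 fell in control siRNA cells (2.10% did). Between the siRNAs, 4 were lower with CTCF than with control siRNA (1.47% of all probe sets were). BNIP3L measured 9.27 and 9.47 in CTCF siRNA cells, 10.16 and 9.92 in control siRNA cells, and 10.49 and 10.44 in untransfected cells. The CTCF siRNA arrays were the lowest. BNIP3L fell by 1.09 ± 0.13 and BNIP3 by 0.66 ± 0.11, both lower than with control siRNA (by 0.67 and 0.56). VEGFA, which the unfolded protein response also raises, fell by 1.25 ± 0.16 with CTCF siRNA and by 1.02 ± 0.16 with control siRNA. The glycolytic genes LDHA, PGK1 and GAPDH differed by −0.20, −0.10 and 0.04. The 4 calls against control siRNA became 1, 0 and 2 without control siRNA replicate 1, CTCF siRNA replicate 1 and CTCF siRNA replicate 2, and the 1 call of control siRNA became 0 without untransfected replicate 1 or control siRNA replicate 2.

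A few interferon-stimulated genes passed the threshold with CTCF siRNA. Transfected double-stranded RNA can trigger the cytoplasmic sensors of the RIG-I family, which lead to interferon and its target genes. Of 23 measured, 5 rose with CTCF siRNA (median 0.33, with 6.30% of all probe sets higher), none passed with control siRNA in limma (4 at an unadjusted p under 0.05, median 0.04), and OASL alone was higher with CTCF than with control siRNA. IFIH1, the sensor MDA5, measured 6.92 and 6.68 in CTCF siRNA cells, 6.36 and 6.33 in control siRNA cells, and 6.06 and 6.10 in untransfected cells. IFIH1 rose by 0.72 ± 0.14, OASL by 0.66 ± 0.12, IFIT2 and USP18 by 0.49 each and HERC6 by 0.46. ISG15, IFIT1 and IFIT3 differed by 0.41, 0.60 and 0.35. The 5 calls became 1 without either CTCF siRNA array and 2 without either untransfected array, and the OASL difference between the siRNAs was lost without CTCF siRNA replicate 2 or either control siRNA array, while the count became 2 without either CTCF siRNA array of 24 h.

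Of 17 measured cohesin subunits and regulators, 4 rose with CTCF siRNA (6.30% of all probe sets did). The only one that fell was CTCF, the targeted gene. STAG1, a cohesin subunit, measured 7.87 and 7.71 in CTCF siRNA cells, 6.37 and 6.29 in control siRNA cells, and 6.13 and 6.22 in untransfected cells. STAG1 rose by 1.61 ± 0.13 (3.06-fold, adjusted p = 4.0e-05) and was higher than with control siRNA by 1.46. Its relative STAG2 differed by 0.24, and the ring subunits SMC1A, SMC3 and RAD21 by 0.39, 0.10 and 0.30. The acetyltransferase ESCO2 and the cohesin protector CDCA5, both made in S phase, rose with CTCF siRNA (1.16 and 0.65) and with control siRNA (1.20 and 0.70). With CTCF siRNA ESCO2 lost its call without untransfected replicate 1 (adjusted p = 0.056), and CDCA5 without untransfected replicate 2 or either CTCF siRNA array (0.13 to 0.24). The unloader WAPL rose by 0.41 ± 0.10 with CTCF siRNA, and by 0.21 ± 0.10 with control siRNA (adjusted p = 0.32). The 5 calls became 3, and WAPL lost its call, without any 1 of the 4 arrays compared. The 2 calls of control siRNA became 0 without untransfected replicate 1 or either control siRNA array, and 1 without any other array except those of CTCF siRNA at 24 or 72 h.

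Signalling genes of the WNT and TGF-beta pathways included both kinds of change. Of 19 measured, 4 rose with CTCF siRNA (6.30% of all probe sets did) and 3 with control siRNA (2.04% did). FZD1, a WNT receptor, measured 6.90 and 7.05 in CTCF siRNA cells, 5.68 and 5.69 in control siRNA cells, and 5.62 and 5.21 in untransfected cells. FZD1 rose by 1.56 ± 0.16 and was higher than with control siRNA by 1.29 (adjusted p = 0.00084). The inhibitor SMAD6 rose with both siRNAs (0.98 with CTCF siRNA, 0.68 with control siRNA), as did RNF43, a ligase that removes WNT receptors (0.76 and 0.53). LEF1, a nuclear partner of beta-catenin, differed by −0.23 with CTCF siRNA and rose by 0.72 with control siRNA. The 3 calls of control siRNA became 0 without untransfected replicate 1 or either control siRNA array.

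Metallothioneins and oxidative stress genes fell in part. MT1F, which binds zinc and copper, measured 7.64 and 7.17 in CTCF siRNA cells, 8.20 and 7.62 in control siRNA cells, and 8.70 and 9.36 in untransfected cells. It fell by 1.62 ± 0.26 with CTCF siRNA and by 1.12 ± 0.26 with control siRNA, and HMOX1, the haem oxygenase, by 1.19 ± 0.20 and 1.11 ± 0.20. Of 11 measured, 2 fell with CTCF siRNA (4.79% of all probe sets did) and SRXN1 rose, and 3 fell with control siRNA (2.10% did). The last count became 1 without untransfected replicate 1 or either control siRNA array of 24 h, and 0 without untransfected replicate 2 or control siRNA replicate 2. The rise of SRXN1 lost its call without untransfected replicate 2 or either CTCF siRNA array (adjusted p = 0.071 to 0.23). SRXN1 was higher with CTCF than with control siRNA by 0.71 (adjusted p = 0.0066), a call lost without CTCF siRNA replicate 1 or either control siRNA array.

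In gene classes known for CTCF sites the counts are to be read against the 4.79% of all probe sets that fell with CTCF siRNA and the 2.10% that fell with control siRNA. Of 15 measured clustered protocadherins, whose promoter choice depends on CTCF in neurons, PCDHB14 alone fell with CTCF siRNA (by 1.22 ± 0.23, with a difference of −0.45 in control siRNA cells), with 0 calls without untransfected replicate 1 and 2 without untransfected replicate 2. None passed with control siRNA in limma (0 at an unadjusted p under 0.05). Of 15 imprinted genes MEST fell by 0.87 ± 0.15 and GRB10 by 0.57 ± 0.11, and both were lower than with control siRNA (by 0.97 and 1.12). GRB10, an adaptor of insulin receptors, measured 7.25 and 7.21 in CTCF siRNA cells, 8.23 and 8.47 in control siRNA cells, and 7.81 and 7.78 in untransfected cells, and rose by 0.55 with control siRNA. The 2 imprinted calls became 1 without untransfected replicate 1 or CTCF siRNA replicate 2, the 2 against control siRNA became 1 without CTCF siRNA replicate 1 or control siRNA replicate 2, and the rise of GRB10 lost its call without any 1 of its 4 arrays. Of 27 HOX genes HOXD13 (0.72 ± 0.15) and HOXC10 (0.65 ± 0.17) fell with CTCF siRNA, with 1 call without any 1 of the 4 arrays compared, and none passed with control siRNA in limma (3 at an unadjusted p under 0.05), where they differed by 0.08 and −0.13. HOXD13 was lower with CTCF than with control siRNA by 0.80 (adjusted p = 0.014), a call lost without CTCF siRNA replicate 2 or either control siRNA array.

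In each of the remaining groups between 0 and 3 genes passed with CTCF siRNA, where 11.1% of all probe sets did. Of 21 cholesterol and fatty acid synthesis genes 3 fell with CTCF siRNA, STARD4 by 1.31 ± 0.18, FADS1 by 0.79 ± 0.13 and SCD by 0.53 ± 0.11, a call that SCD lost without untransfected replicate 1 or CTCF siRNA replicate 1. With control siRNA STARD4 fell (1.10 ± 0.18) and ELOVL6 rose (0.62 ± 0.11), a count of 2 that became 1 without either untransfected array or control siRNA replicate 1, and 0 without control siRNA replicate 2. Of 10 p53 targets TP53INP1 fell by 0.81 ± 0.11 with CTCF siRNA (median of the group, 0.28), a count that became 2 without untransfected replicate 1 and 5 with brighter probe sets only or a trended and robust variance. With control siRNA TP53INP1 differed by −0.23 and none of the 10 passed in limma (2 at an unadjusted p under 0.05), although 1 did without either control siRNA array of 72 h. Between the siRNAs TP53INP1 was lower (by 0.58) and RRM2B higher (by 0.62) with CTCF siRNA, and both calls were lost without any 1 of the 4 siRNA arrays of 144 h. Of 24 lysosome and autophagy genes TFEB, a master regulator of lysosomal genes, rose by 0.76 ± 0.21 and LAMP3 fell, with 1 call without any 1 of the 4 arrays compared. With control siRNA LAMP3 fell and TFEB differed by 0.37, and the count of 1 became 2 without untransfected replicate 2. Of 22 immediate early genes MYC rose by 0.46 ± 0.12 and ATF3 fell, with 1 call without untransfected replicate 2 or either CTCF siRNA array. Both passed with control siRNA too (0.50 for MYC and −1.43 for ATF3), a count of 2 that became 0 without control siRNA replicate 2 and 1 without any other array of the 14. CYC1 was the only one of 8 respiratory chain subunits to rise with CTCF siRNA (0.53 ± 0.13), and SLBP the only one of 2 histone-related genes (0.52 ± 0.13). CYC1 lost its call without untransfected replicate 2 or either CTCF siRNA array, and SLBP without any 1 of the 4 arrays compared. With control siRNA they differed by 0.29 and 0.30, and neither group had a call in limma (1 gene each at an unadjusted p under 0.05). None of 19 ribosomal protein genes passed with CTCF siRNA in limma (3 at an unadjusted p under 0.05, median −0.11), and the count was 1 without either control siRNA array of 24 h. With control siRNA none passed in limma either (0 at an unadjusted p under 0.05, median −0.04).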

How the data were processed

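Affymetrix Human Gene 2.0 ST arrays measured RNA of LNCaP cells in 7 groups of 2. In R 3.2.5 the authors background-corrected the array scans, quantile-normalised them and took a median polish per probe set (RMA), and the deposited values are log2 values, 1 column per array, with medians of 3.67 to 3.72. Scanner files were not analysed here, so how far a value lies above background is unknown, and the number of arrays limits the precision. Of 53617 probe sets, 16098 name 1 gene (14884 symbols, all matched to RefSeq of GRCh38.p14) and were tested. The other 37519 carry no name.

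limma 3.58.1 in R 4.3.3 (lmFit, eBayes) was fitted to all 14 arrays with group and, following the study's methods, replicate number as a block, which left 6 residual degrees of freedom. All tests were two-sided. Over 21 pairs of groups, deviations of equally numbered arrays correlated at −0.09 to 0.23, with 2 pairs above 0.1. Those 2 were CTCF with control siRNA at 72 h (0.23) and at 144 h (0.15), against 0.04 at 24 h. CTCF siRNA at 144 h with untransfected cells gave −0.06. The pairing was taken from the methods and not from these values. It follows the titles, whereas the descriptions number the 24 h arrays 3 and 4, so their place in the block is uncertain. On simulated data with 200 of 16098 probe sets changed, the comparison with untransfected cells recovered 41.8% of 1.5-fold, 97% of 2-fold and 100% of 4-fold changes, and 6 of 165 calls were false. The simulated noise was independent and normal with the spread of the fit, and the other groups did not differ. It shows how the method does under its own assumptions, and not how many calls in these data are false.

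Named were CTCF, the 15 largest called differences per direction, the 10 largest per direction also called against control siRNA, 5 per direction called with control siRNA with an opposite difference between the siRNAs, and up to 8 called members of each gene list. All kallikrein and marker genes may be given as levels, and other members are named with counts of 5 or fewer or were chosen after their values were seen. Where several probe sets name a gene, the brightest stands for it. The members and the 32 gene lists were chosen with earlier results of these data known, and 1 list, amino acid transporters, had no measured member. Alternatives were a fit with no block, fewer arrays, other sets of probe sets, a repeated quantile normalisation, another variance model and each array left out.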

Additional observations from a re-analysis of the deposited data

Results flagged for a closer look

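Named genes whose difference from untransfected cells was not the same at 144 h and at 72 h of CTCF siRNA are given here, as the difference at 144 h minus that at 72 h on the log2 scale. Both times share the untransfected arrays, so the value equals CTCF siRNA at 144 h minus CTCF siRNA at 72 h. The limma adjusted p values ran from 0.00185 to 0.047 over 28 genes. Only genes called at 144 h were looked at, and many were named for large differences in those same arrays. A larger size at 144 h than at 72 h is therefore partly built in by the choice. The estimate lay above untransfected cells at both times, called or not at 72 h, and was larger at 144 h in CA12 (0.9975), CD68 (0.93), CFAP47 (1.69), CLU (1.44), CRISP3 (1.29), FZD1 (0.92), MAP1B (1.32), RNF43 (0.68), RPL26L1-AS1 (1.26), SGK1 (1.62) and TMTC2 (1.16). That of RNF43 at 72 h was only 0.08. The estimate lay below untransfected cells at both times, called or not at 72 h, and was larger in size at 144 h in ACKR3 (−1.51), BOLA3 (−1.38), CD24 (−1.50), CDKN2AIPNL (−1.59), GTF2IRD2 (−1.17), HSD17B14 (−1.57), MT1F (−1.29), OCRL (−1.49), PAX1 (−1.03), PPA2 (−1.58), RBM45 (−1.55), SVIL (−0.64) and ZBTB39 (−1.22). A steady change from 24 h did not hold in all of these genes. CLU stood at 1.51 at 24 h and 0.61 at 72 h, CD24 at −1.15 and −0.33, and MT1F at −1.06 and −0.33. In others, such as MAP1B (−0.22 and 0.81) and PPA2 (−0.42 and −1.25), the estimate at 24 h was the smaller in size. The sign of the estimate differed between the times in ATXN1 (1.69), GRB10 (−0.75), MAF (0.89) and SEC11C (1.16), where the estimates at 144 h and 72 h were 0.90 and −0.79 for ATXN1, −0.57 and 0.18 for GRB10, 0.76 and −0.13 for MAF, 0.81 and −0.35 for SEC11C.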

How the results depend on the processing

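Under the 21 alternatives none of the 138 named calls of CTCF siRNA against untransfected cells, besides CTCF, changed direction. Directions with control siRNA, between the siRNAs and of genes not called were not checked. Of the 138 calls, 88 held in every alternative. A further 3 (SGK1, CFAP47 and CFAP107) held in all but the fit of brighter probe sets, which had no row for them. The fall of CTCF ran from −1.989 to −1.872 with 1 array left out (limma adjusted p = 6.2e-05 to 0.0022). With 1 array left out, the calls against untransfected cells ran from 792 to 1763 (413 to 1009 higher, 379 to 754 lower) for CTCF siRNA and from 72 to 621 for control siRNA, and those between the siRNAs from 228 to 606, the lowest without CTCF siRNA replicate 1, control siRNA replicate 2 and control siRNA replicate 1 in that order. A fit of only the 6 arrays gave 1181 (669 higher, 512 lower), 319 and 285, and control siRNA gave 437 calls without the 24 h arrays and 367 over every row of the table; the first rests on fewer arrays, and the cause of the last was not tested. Without the replicate block, the counts were 1857, 687 and 652, CTCF differed by −1.931, and 1 named call, IFIT2, was lost (adjusted p = 0.064). Of 1953 counts of list members under alternatives, 1640 stayed within 1.5 times and 313 did not. In the simulated data, which met the assumptions of the fit, a change of 1.5-fold was often missed with 2 arrays per group.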
